A study of Mus musculus with 22 samples.

Results

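*Adgre1* (named *Emr1* in older annotation), *Ptprc*, *Itgam*, *Cd33*, *Cd300a*, *Cd53*, *Cd68*, *Laptm5*, *Lyz2* and *Mpeg1* are surface and granule genes of macrophages. They are 10 of the 55401 gene identifiers for which RNA-seq counts were deposited from cultures of mouse embryonic fibroblasts (MEFs). They were selected on their levels in these same 22 libraries, across all 6 groups, so their levels and the differences between groups are described below with their errors and without a test. The other genes of their families, and markers of macrophages and of other cell types, were taken from lists and tested over all genes. The study asked how loss of the S6 kinases changes MEFs that are passaged until they stop dividing. The *S6K1* set held WT MEFs at passage 3 (early, n = 4), WT MEFs at passage 8 (late, n = 4) and *S6K1* KO MEFs at passage 8 (late, n = 3), and its WT and KO embryos were littermates. The *S6K1/S6K2* set held early WT MEFs at passage 3 (n = 4), late WT MEFs at passage 8 (n = 4) and late *S6K1/S6K2* double KO (DKO) MEFs at passage 8 (n = 3). The DKO embryos came from parents without *S6K2*, whereas the WT embryos of that set were bred earlier from mothers that were themselves WT, so that genotype and litter cannot be told apart there. Both kinases were removed from the germ line and not from a chosen cell type. MEFs are a mixed primary culture of what remains of an embryo without its head and viscera, and the sources used here do not say which libraries share an embryo or a mother, so the errors measure the spread between libraries.

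Macrophages arise in the embryo from yolk sac and liver progenitors, settle in nearly all tissues and clear dying cells. They are recognized by receptors on their surface and by proteins of their phagosomes, lysosomes and secretory granules. *Adgre1* encodes F4/80, an adhesion G protein-coupled receptor used to mark mouse macrophages, and *Ptprc* encodes CD45, the receptor tyrosine phosphatase of all leukocytes. *Itgam* encodes CD11b, the α chain of the complement receptor Mac-1, which pairs with the β chain encoded by *Itgb2*. *Cd33* encodes a sialic acid-binding receptor, *Cd300a* an inhibitory receptor that recruits phosphatases, and *Cd53* a leukocyte tetraspanin. *Cd68* encodes a heavily glycosylated lysosomal membrane protein related to LAMP1, and *Laptm5* a lysosomal membrane protein of blood cells. *Lyz2* encodes the lysozyme that macrophages secrete and store, and *Mpeg1* encodes perforin-2, a pore-forming protein of phagosomes that attacks bacteria.

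The 10 genes lie on 8 chromosomes, given here as in RefSeq for GRCm38.p6, the mm10 build that the labels name. *Adgre1* (ENSMUSG00000004730.15) is on chromosome 17 from 57358581 to 57483529, *Ptprc* (ENSMUSG00000026395.16) on chromosome 1 from 138062859 to 138175756 and *Cd53* (ENSMUSG00000040747.9) on chromosome 3 from 106758861 to 106790149. *Laptm5* (ENSMUSG00000028581.17) is on chromosome 4 from 130912890 to 130936148, *Lyz2* (ENSMUSG00000069516.8) on chromosome 10 from 117277541 to 117282272 and *Mpeg1* (ENSMUSG00000046805.10) on chromosome 19 from 12460770 to 12465285. *Itgam* (ENSMUSG00000030786.18, 128062640 to 128118491) and *Cd33* (ENSMUSG00000004609.11, 43527399 to 43537424) share chromosome 7. *Cd68* (ENSMUSG00000018774.13, 69664213 to 69666170) and *Cd300a* (ENSMUSG00000034652.12, 114889152 to 114901946) share chromosome 11 with *Rps6kb1*, the gene deleted in *S6K1* KO MEFs, at 16.9 and 28.4 Mb from it. *Mpeg1* shares chromosome 19 with *Rps6kb2*, the other gene deleted in DKO MEFs, which lies from 4156792 to 4163383.

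Because the 10 genes moved together, the sequence before their starts was searched for motifs of factors that act in macrophages. Promoter sequences from RefSeq were matched for 9 of the 10 genes, all but *Adgre1*. The 120 bases just before the start are printed for *Itgam* (chr7:128062520-128062639, plus strand), *Cd53* (chr3:106790150-106790269, minus strand), *Lyz2* (chr10:117282273-117282392, minus strand) and *Mpeg1* (chr19:12460650-12460769, plus strand). They were chosen because these windows lie outside the annotated span of their own gene and show the motifs found and, for *Mpeg1*, a window without one. Overlap of these windows with other genes was not checked. Each is written 5′ to 3′ on the strand of its gene, with the motifs in capitals.
Itgam: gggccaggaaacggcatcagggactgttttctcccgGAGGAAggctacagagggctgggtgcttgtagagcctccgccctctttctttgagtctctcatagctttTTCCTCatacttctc
Cd53: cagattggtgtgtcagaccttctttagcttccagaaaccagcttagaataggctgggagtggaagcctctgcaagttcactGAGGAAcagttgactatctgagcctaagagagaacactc
Lyz2: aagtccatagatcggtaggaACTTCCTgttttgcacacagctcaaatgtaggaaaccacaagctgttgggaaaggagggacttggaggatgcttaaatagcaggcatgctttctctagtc
Mpeg1: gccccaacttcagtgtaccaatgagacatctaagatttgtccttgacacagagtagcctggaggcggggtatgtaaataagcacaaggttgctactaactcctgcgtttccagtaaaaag
GAGGAA, the purine-rich core bound by PU.1, a transcription factor that macrophages need, was found on either strand within 250 bases before the start in 7 of the 9 genes, and in 23.3% of all 32851 windows of that length. The 9 genes had 10 windows, and their counts are by gene, whereas the shares are by window. In the sequences above GAGGAA stands 84 bases before the start of *Itgam*, again, as TTCCTC on the other strand, 15 bases before it, and 39 bases before the start of *Cd53*. The other genes with it were *Ptprc* (158 bases before the start), *Laptm5* (38), *Cd33* (226), *Cd68* (225) and *Cd300a* (39). For *Ptprc*, *Laptm5*, *Cd33* and *Cd300a* the start in this promoter table lies inside an annotated gene and is not the outer end of the gene given above. AGGAAGT, the core of ETS family sites, whose matches do not overlap those of GAGGAA here, was found in *Ptprc* and, as ACTTCCT 100 bases before the start, in *Lyz2*, and in 7.69% of all windows. CACGTG, the E-box read by TFE3, MITF and USF1 at lysosomal genes, was found in 0 of the 9 genes and in 6.02% of all windows. These matches are letters in a window, and no binding was measured.

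The total count was 10742454 to 17314832 per library, so that 3 counts corresponded to 0.173 to 0.279 CPM, the count scaled to the size of the library. *Rps6kb1* served as the check of the labels and had a log2 fold change in late KO against late WT MEFs of −1.67 (SE 0.19, adjusted *P* = 0.00744) by edgeR's quasi-likelihood test, the test used throughout. In late DKO against late WT MEFs it had one of −1.64 (SE 0.15, adjusted *P* = 0.000786). *Rps6kb2*, which encodes S6K2, had one of −3.95 (SE 0.32, adjusted *P* = 0.000412) there. Of 10 fibroblast genes, *Col1a2* and *Col1a1*, the chains of type I collagen, were the most abundant, at 3451 to 6145 CPM and 3167 to 6540.4 CPM in late WT MEFs of the *S6K1* set. Transcripts of 4 Y-linked genes were present in 2 of 4 early WT, 1 of 4 late WT and 3 of 3 late KO libraries, and in 2 of 4 early WT, 3 of 4 late WT and 1 of 3 late DKO libraries.

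The surface receptors were low but present in every early library and several-fold higher in late WT MEFs. *Adgre1* was at 11.1, 13.2, 17.4 and 9.67 CPM in the early WT libraries of the *S6K1* set, at 240.2, 108, 194 and 127 CPM in late WT and at 79.2, 95.7 and 85.7 CPM in late KO MEFs. The *S6K1/S6K2* libraries had 11.5, 7.71, 22.2 and 26.9 CPM of it in early WT, 108, 134, 126 and 90.1 CPM in late WT and 43.5, 19.5 and 16.4 CPM in late DKO MEFs. Each late WT library was above all early libraries, and within the *S6K1* set the KO libraries stood between them without overlap, whereas 2 DKO libraries lay within the early WT range and the other above it. *Ptprc* was at 4.07, 7.03, 9.08 and 1.93 CPM in early WT, 45.6, 32.3, 56.2 and 33.5 CPM in late WT and 23.8, 22.1 and 25.1 CPM in late KO MEFs. In the other set *Ptprc* was at 4.97, 3.49, 12.5 and 12.8 CPM in early WT, 40.1, 51.4, 47.1 and 38.8 CPM in late WT and 17.6, 6.68 and 8.22 CPM in late DKO MEFs. The 3 KO libraries were close to one another and lay below all late WT libraries and above all early ones, and the highest DKO library exceeded all 4 early WT libraries while the others did not. In these bulk libraries, fewer macrophages and less RNA of these genes per macrophage cannot be told apart.

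*Itgam* was at 3.54, 5.01, 4.71 and 6.16 CPM in early WT, 49.2, 18.1, 25.9 and 25.6 CPM in late WT and 12.1, 19.0 and 17.3 CPM in late KO MEFs of the *S6K1* set, where 1 KO library exceeded the lowest late WT library. The *S6K1/S6K2* libraries stood at 4.53, 2.02, 6.68 and 6.42 CPM in early WT, 26.6, 33.0, 37.3 and 18.9 CPM in late WT and 7.17, 2.52 and 2.16 CPM in late DKO MEFs, and 1 of the DKO libraries was above all 4 early ones. *Cd33* was at 2.02 to 3.90 CPM in early WT, 22.8 to 39.0 CPM in late WT and 11.4 to 13.2 CPM in late KO MEFs, and at 2.14 to 7.59, 16.1 to 38.1 and 1.65 to 7.26 CPM in early WT, late WT and DKO MEFs of the other set. *Cd300a*, the least abundant of the 10 at 1.34 to 2.47 CPM in early WT MEFs, reached 17.6 to 27.0 CPM in late WT and 5.40 to 10.1 CPM in late KO MEFs. For both *Cd33* and *Cd300a* the KO libraries lay between the early and the late WT libraries without overlap. In the *S6K1/S6K2* set *Cd300a* was at 1.16 to 4.15 CPM in early WT, 13.7 to 27.9 CPM in late WT and 2.47 to 9.28 CPM in DKO MEFs. *Cd53* was at 2.46 to 15.5, 47.9 to 73.2 and 41.0 to 54.6 CPM in early WT, late WT and KO MEFs and at 6.55 to 28.1, 70.4 to 117 and 14.7 to 39.6 CPM in early WT, late WT and DKO MEFs, so that KO overlapped late WT MEFs and DKO did not.

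**Figure D1:**
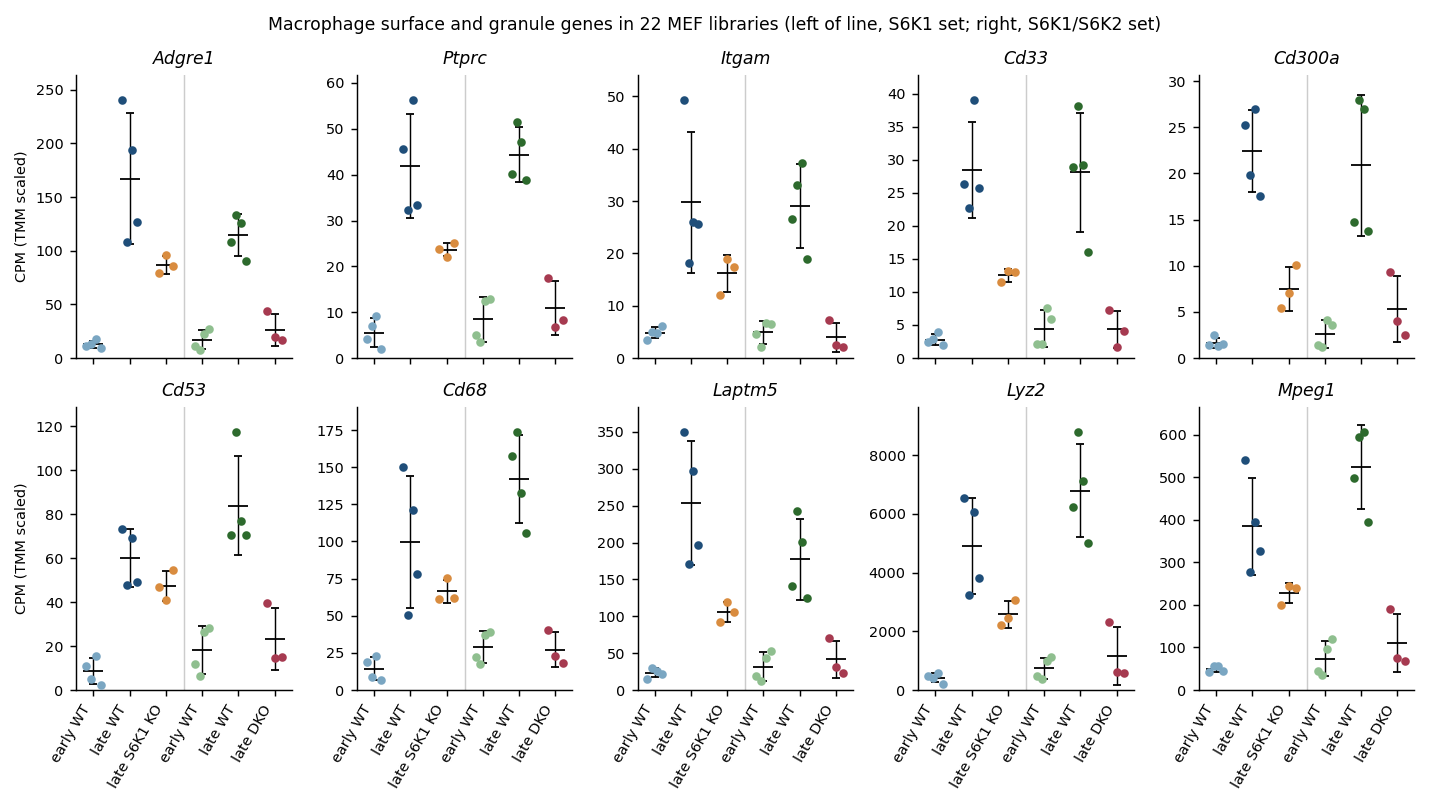
Level of each of the 10 genes in CPM on linear axes that start at 0, with 1 point a library, and bars for the mean ± SD of each group (n = 4 for WT, n = 3 for KO and DKO). In every panel both late WT groups stand above both early WT groups, and late KO MEFs come next by mean.

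Among the lysosome and granule genes, *Lyz2* dominated. It was at 476, 419, 595 and 206 CPM in early WT, 6551, 3240.1, 6066 and 3805 CPM in late WT and 2201, 2451 and 3067 CPM in late KO MEFs. The *S6K1/S6K2* set had 478, 368, 988 and 1110.2 CPM in early WT, 6222, 8772, 7111 and 5010.2 CPM in late WT and 2301, 619 and 573 CPM in late DKO MEFs. All KO libraries were below all late WT libraries, and in the DKO group 1 library stood at more than 3 times the level of the others. *Cd68* was at 18.8, 8.90, 22.9 and 6.68 CPM in early WT, 150.1, 50.3, 121 and 77.9 CPM in late WT and 61.3, 75.5 and 62.3 CPM in late KO MEFs, with the KO libraries inside the late WT range. For DKO MEFs *Cd68* was at 40.4, 23.1 and 18.1 CPM, against 157, 173, 133 and 106 CPM in late WT and 22.5, 17.5, 36.8 and 39.2 CPM in early WT MEFs, so that DKO lay within the early WT range except for 1 library just above it. *Laptm5* ranged over 15.0 to 29.3, 171 to 349.5 and 92.7 to 119 CPM in early WT, late WT and KO MEFs and over 12.2 to 52.7, 125 to 243 and 23.5 to 70.0 CPM in early WT, late WT and DKO MEFs. *Mpeg1* ranged over 41.3 to 56.0, 278 to 539.7 and 200.4 to 244 CPM and over 34.4 to 121, 394 to 605 and 69.1 to 190.2 CPM in the same order. For both genes the KO and the DKO libraries were all below the late WT libraries of their set.

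Per kilobase of annotated exon, *Lyz2* was the most abundant of the 10 in every group, at 3744 ± 1247 CPM per kb in late WT and 1959.7 ± 339.6 CPM per kb in late KO MEFs of the *S6K1* set. *Mpeg1* and *Cd68* came next in all 6 groups and changed places between them, at 88.6 ± 26.3 and 79.5 ± 35.3 CPM per kb in late WT and 52.6 ± 5.53 and 52.8 ± 6.28 CPM per kb in KO MEFs, which did not differ beyond their spread. *Itgam* and *Cd300a* were the lowest pair in all groups, at 4.66 ± 2.12 and 4.73 ± 0.936 CPM per kb in late WT MEFs. *Lyz2* alone made up 76.2 to 85.3% of the summed CPM of the 10 genes in the groups. *Lyz1*, a near-identical neighbor of *Lyz2* whose reads the counting may have split, did not exceed 3.67 CPM in any library.

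By mean level the groups fell into nearly the same order for all 10 genes. The late WT groups of the 2 sets took ranks 1 and 2, each set leading for 5 genes, and they overlapped for all 10. Late KO MEFs took rank 3 for all 10, and they overlapped the group at rank 2 for 4 genes (*Adgre1*, *Cd68*, *Itgam* and *Cd53*). For *Adgre1* and *Itgam* that group was the late WT MEFs of the other set. Within the *S6K1* set *Adgre1* did not overlap between late KO and late WT MEFs. The KO group and the group ranked below it overlapped for 2 genes, *Cd300a* and *Lyz2*, in both cases with DKO MEFs. DKO MEFs and both early WT groups filled the last 3 ranks, and neighbors there overlapped for all 10 genes. Many neighbors in this order belong to different sets. The share over all genes was not computed for these overlaps, so nothing is read from their counts. The 10 genes together took 0.0548% of all counts in early WT MEFs, 0.597% in late WT and 0.308% in late KO MEFs, and 0.0960%, 0.802% and 0.138% in early WT, late WT and DKO MEFs of the other set. Summed, they stood at 547 ± 185 CPM (SD, n = 4), 6003 ± 1970.3 CPM (SD, n = 4) and 3168 ± 479 CPM (SD, n = 3) in the *S6K1* set and at 927 ± 469 CPM (SD, n = 4), 7942 ± 1815 CPM (SD, n = 4) and 1419 ± 1133 CPM (SD, n = 3) in the *S6K1/S6K2* set.

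Libraries differed within groups, and the genes moved with them. The first DKO library was the highest of its group for all 10 genes, with a sum of 2726 CPM against 797 and 732 CPM in the others. Replicate 4 of the late WT MEFs of that set was the lowest of its group for all 10, and replicate 2 the highest for 8. In late WT MEFs of the *S6K1* set, replicate 1 was the highest for 7 genes and replicate 2 the lowest for 9. The highest-to-lowest ratio among the 3 KO libraries was 1.13 for *Ptprc* to 1.86 for *Cd300a*, whereas the 4 early WT libraries of the *S6K1* set differed 6.29-fold for *Cd53* and 4.69-fold for *Ptprc*.

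From early to late passage in WT MEFs of the *S6K1* set, the log2 fold change was between 2.62 (SE 0.31) for *Itgam* and 3.75 (SE 0.28) for *Cd300a*, with *Adgre1* at 3.70 (SE 0.28), *Lyz2* at 3.53 (SE 0.35) and *Laptm5* at 3.45 (SE 0.27). The median of the 10 was 3.15, beside −0.04 over all 14132 genes tested. All 10 were higher in every late than in every early library, as were 9.21% of the genes tested. In the *S6K1/S6K2* set the passage difference ran from 2.24 (SE 0.47) for *Cd53* to 3.23 (SE 0.52) for *Lyz2*, with *Adgre1* at 2.78 (SE 0.41), *Ptprc* at 2.43 (SE 0.42) and *Mpeg1* at 2.85 (SE 0.45). Here the median was 2.64, beside 0.01 over 14365 genes, and again none overlapped (10.3% of genes tested were higher without overlap). For *Adgre1* the ratio of group means was 13.0 in the *S6K1* set and 6.70 in the *S6K1/S6K2* set. The members were selected on the levels in these groups, so nothing is read from such counts here or in the comparisons that follow.

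Late *S6K1* KO MEFs had lower means than late WT MEFs for all 10 genes, by less than the passage difference. *Cd300a* had a log2 fold change of −1.59 (SE 0.28), *Laptm5* of −1.26 (SE 0.28), *Cd33* of −1.19 (SE 0.24), *Adgre1* of −0.95 (SE 0.27) and *Lyz2* of −0.94 (SE 0.35). At the other end stood *Cd53* at −0.34 (SE 0.42), *Cd68* at −0.59 (SE 0.42) and *Mpeg1* at −0.76 (SE 0.22). The median was −0.91, beside −0.01 over all genes tested. In the CPM values 7, all but *Cd68*, *Itgam* and *Cd53*, were lower in every KO library than in every late WT library, as were 6.19% of the genes tested. All 3 KO libraries and 1 of the 4 late WT libraries carried Y-linked transcripts. That late WT library was above all KO libraries for all 10 genes, with a sum of 7290 CPM against 2734 to 3681 CPM. It is 1 library, and the other late WT libraries summed to 8050, 3988 and 4684 CPM. For the 7 genes without overlap this order was already fixed. With the Y-linked level as a covariate, the log2 fold changes were −0.63 to −1.57, with a median of −1.24.

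The differences between late DKO and late WT MEFs were larger in value. *Itgam* had a log2 fold change of −2.90 (SE 0.49), *Cd33* of −2.70 (SE 0.56), *Lyz2* of −2.56 (SE 0.56) and *Cd68* of −2.41 (SE 0.35), and the smallest were *Cd53* at −1.87 (SE 0.51) and *Cd300a* at −2.01 (SE 0.53). *Cd68*, with −0.59 in KO MEFs, was at 0.191 times its late WT mean in DKO MEFs. The median was −2.19, beside −0.01 over all genes tested. All 10 were lower in every DKO than in every late WT library, where 16.4% of the genes tested did not overlap in either direction. Without the first DKO library the median was −2.74, and without the second or the third DKO library it was −1.97 or −1.94. A split of these libraries by Y-linked transcripts adds nothing, because the absence of overlap already fixed its outcome for all 10 genes. With the Y-linked level as a covariate, the log2 fold changes were −1.93 to −2.96, with a median of −2.31. Whether the difference between DKO and WT MEFs exceeds that between KO and WT MEFs was not tested.

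**Figure D2:**
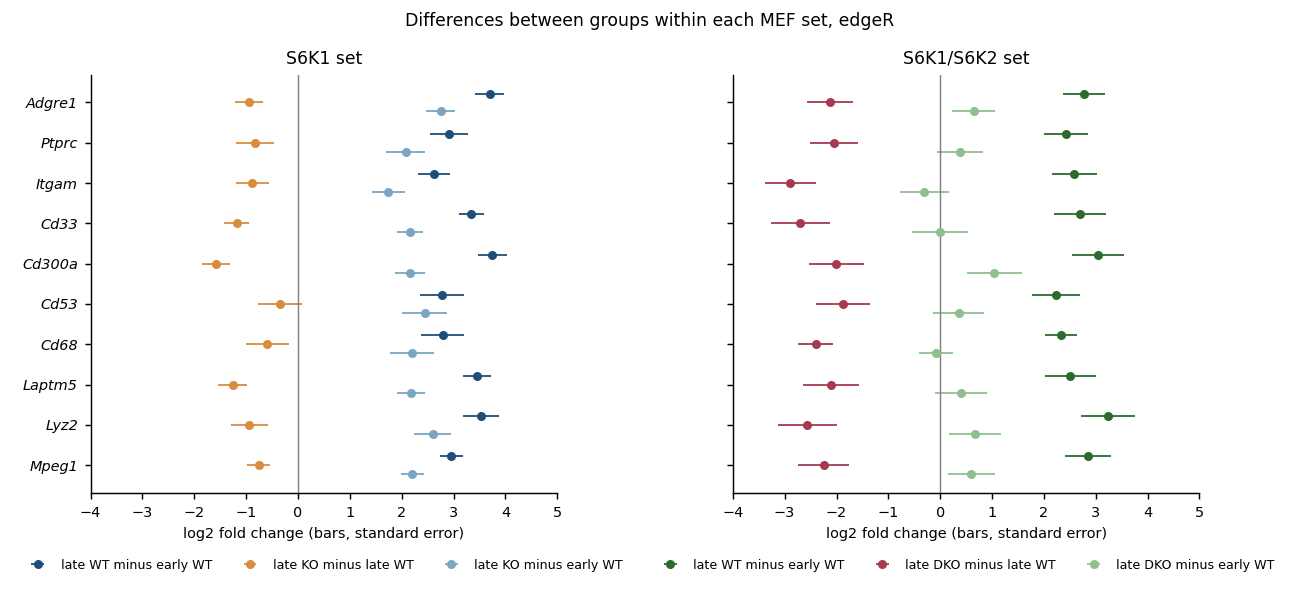
Log2 fold change of each of the 10 genes (points) with its standard error (bars) in the 3 comparisons of each MEF set, fitted with edgeR on the 11 libraries of the set. All passage differences lie above 2, KO differences lie between −0.34 and −1.59, DKO differences between −1.87 and −2.90, and DKO against early WT differences lie around 0.

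Set against early WT MEFs of the same set, which share libraries with the comparisons above, late KO MEFs had higher levels of all 10 genes, and late DKO libraries overlapped the early WT ones. In late KO MEFs the log2 fold change against early WT MEFs was 1.74 (SE 0.32) for *Itgam* to 2.75 (SE 0.28) for *Adgre1*, with a median of 2.19 beside −0.02 over all genes tested. None overlapped (14.1% of genes tested were higher without overlap). Late DKO MEFs were at 1.04 (SE 0.53) for *Cd300a*, 0.67 (SE 0.51) for *Lyz2*, 0.65 (SE 0.42) for *Adgre1*, −0.01 (SE 0.55) for *Cd33*, −0.08 (SE 0.32) for *Cd68* and −0.31 (SE 0.47) for *Itgam*. All 10 overlapped, where 14.1% of the genes tested were higher and 16.4% lower without overlap. The median was 0.39 beside 0.00 over all genes tested, and −0.24 without the first DKO library.

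Genes of the same families were read beside the members, and split by whether they are used by leukocytes or by most cells. The integrin β2 chain *Itgb2*, the partner of CD11b, rose with passage by 3.13 (SE 0.39, adjusted *P* = 0.000332) in the *S6K1* set and 2.31 (SE 0.38, adjusted *P* = 0.00323) in the *S6K1/S6K2* set. It fell in DKO MEFs, with a log2 fold change of −2.14 (SE 0.42, adjusted *P* = 0.0169). KO MEFs had a mean of 27.8 CPM and late WT MEFs one of 34.1 CPM (adjusted *P* = 0.826). *Itgb1*, the β chain of fibroblast integrins, was at 1862 ± 698 CPM (SD, n = 4), 1762 ± 225 CPM (SD, n = 4) and 3135 ± 449 CPM (SD, n = 3) in early WT, late WT and KO MEFs. Inhibitory receptors such as CD300A act through phosphatases. *Ptpn6*, which encodes SHP-1, rose with passage by 2.89 (SE 0.30, adjusted *P* = 8.3e-05) and 2.48 (SE 0.37, adjusted *P* = 0.00214) in the 2 sets. It fell in DKO MEFs, with a log2 fold change of −2.39 (SE 0.42, adjusted *P* = 0.0104). *Inpp5d*, which encodes SHIP1, rose by 2.82 (SE 0.25, adjusted *P* = 3.68e-05) and 2.32 (SE 0.33, adjusted *P* = 0.0013). It fell in DKO MEFs, with a change of −2.48 (SE 0.37, adjusted *P* = 0.00519). *Ptpn11*, which encodes the widely used SHP-2, was at 121 ± 20.2 CPM (SD, n = 4) in late WT and 103 ± 14.5 CPM (SD, n = 4) in early WT MEFs.

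Not all leukocyte relatives followed. *Cd37*, a leukocyte tetraspanin like CD53, rose by 3.10 (SE 0.49, adjusted *P* = 0.00148) and 2.33 (SE 0.36, adjusted *P* = 0.00217) with passage. It fell in DKO MEFs, with a change of −2.15 (SE 0.40, adjusted *P* = 0.0129). *Cd300lb*, an activating CD300 receptor, rose by 3.86 (SE 0.46, adjusted *P* = 0.00022) in the *S6K1* set and 1.58 (SE 0.47, adjusted *P* = 0.0477) in the *S6K1/S6K2* set. In the latter it kept only its direction in 9 of 14 alternative fits. It fell in DKO MEFs (−2.40, SE 0.56, adjusted *P* = 0.0322), where it kept only its direction in 5 of 13 alternative fits. *Siglecg*, the most abundant sialic acid-binding relative of *Cd33*, averaged 26.3 CPM in early and 40.9 CPM in late WT MEFs of the *S6K1* set. Its passage difference there was 0.64 (SE 0.45, adjusted *P* = 0.39). *Siglece*, a further such relative named after its values were seen, was higher in late WT MEFs. It was at 0.352 to 0.598 CPM in early and 2.08 to 6.04 CPM in late WT MEFs of that set. In the *S6K1/S6K2* set it was at 0.166 to 0.389 and 0.511 to 1.40 CPM. *Siglec1*, which encodes the sialoadhesin of resident macrophages, had a passage difference of 0.60 (SE 0.40, adjusted *P* = 0.331) in the *S6K1/S6K2* set. It was lower in DKO than in late WT MEFs (−3.36, SE 0.54, adjusted *P* = 0.00656) and than in early WT MEFs (−2.76, SE 0.54, adjusted *P* = 0.006). Its levels were low, at 1.56 to 2.88 CPM in early and 1.55 to 4.98 CPM in late WT MEFs of that set. The DKO libraries held 1 to 6 counts of it (0.0968 to 0.506 CPM), near the level of 3 counts. *Itgax*, *Itgad*, *Ptprcap*, *Cd300c*, *Cd300e*, *Siglech*, *Tspan32* and *Prf1* did not reach 1 CPM in any library, and *Adgre4* had 0 counts in all 22. Of the 12 leukocyte relatives tested in the *S6K1* set, 9 passed as higher with passage (6.96% of genes tested), and of the 13 tested in the *S6K1/S6K2* set, 8 passed as higher with passage (8.28%) and 8 as lower in DKO MEFs (3.95%). Without replicate 1 of the early WT MEFs of that set 4 passed with passage, and without DKO replicate 2, 2 passed in DKO MEFs. In KO MEFs 0 of the 12 passed with edgeR (0.0354% of genes tested passed as lower). There 3 of the 12 had an unadjusted *P* value under 0.05, as did 1499 of the 14132 genes tested, and 1 passed with DESeq2, which called 266 genes. Against early WT MEFs 9 of the 12 were higher in KO MEFs (5.93% of genes tested), and 1 of the 13, *Siglec1*, was lower in DKO MEFs (8.92%).

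**Figure D3:**
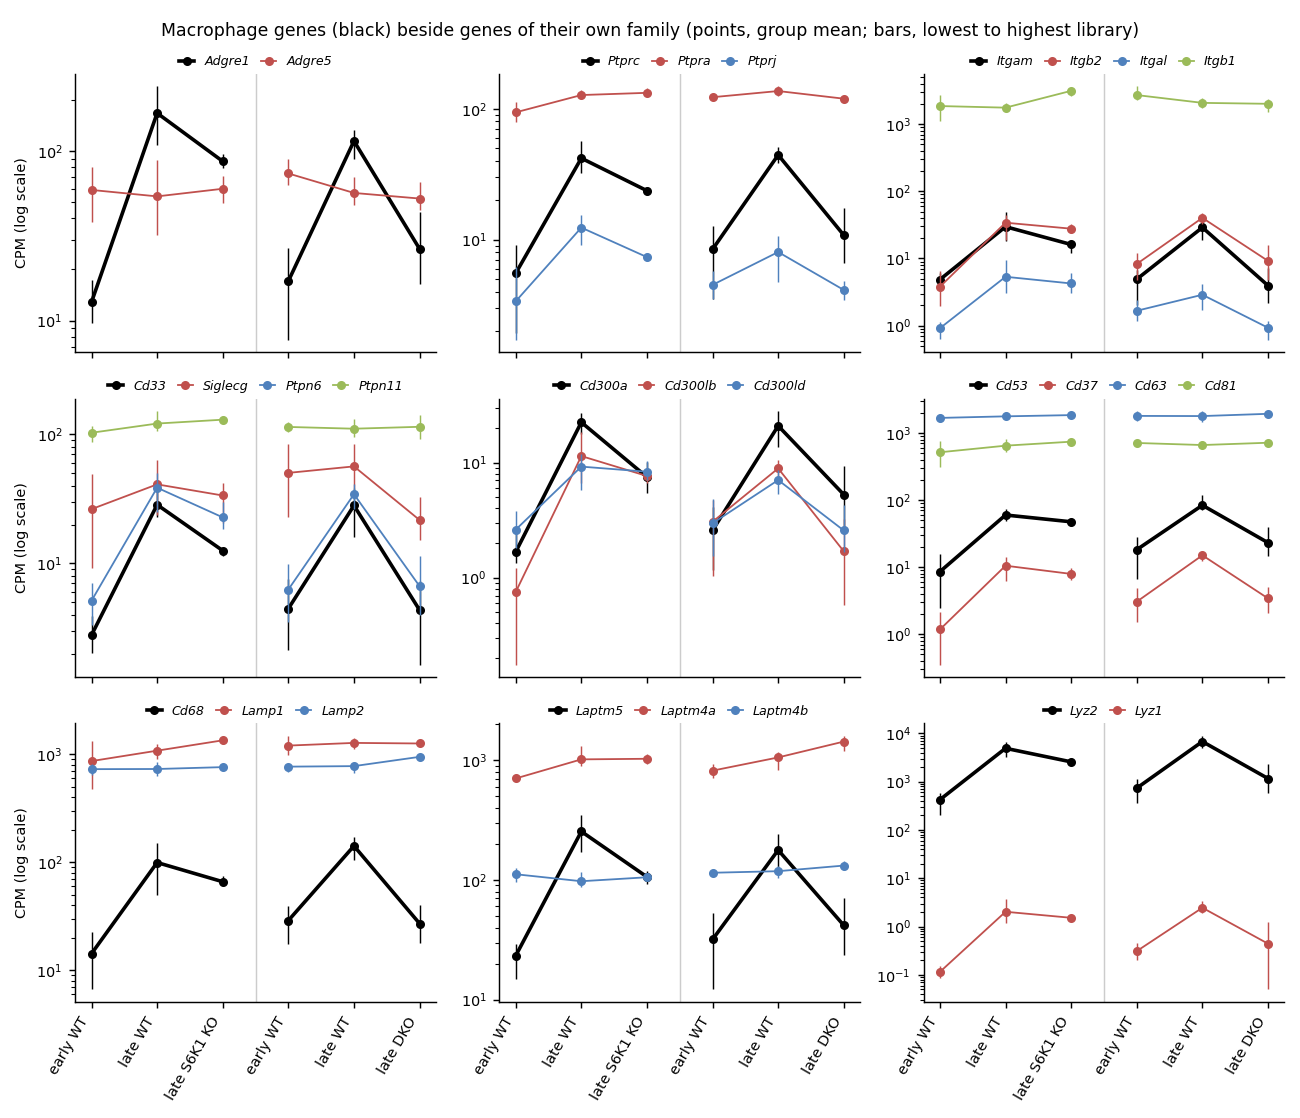
Group means in CPM on log axes for 9 of the 10 genes (black) and for genes of their own families (color), with bars from the lowest to the highest library of a group. A *Lyz1* library at 0 CPM is drawn down to 0.05 CPM. The black lines peak in late WT MEFs of both sets, as do those of *Itgb2*, *Ptpn6*, *Cd37* and *Ptprj*, whereas those of *Adgre5*, *Itgb1*, *Cd63*, *Lamp2* and *Laptm4b* do not.

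With passage, 14 of the 23 widely expressed relatives had a positive log2 fold change in the *S6K1* set and 9 in the *S6K1/S6K2* set. The genes of the general lysosomal membrane proteins related to CD68, *Lamp1* and *Lamp2*, stood at 1084 ± 144 CPM and 734 ± 93.4 CPM (SD) in late WT and at 1352 ± 77.0 CPM (SD, n = 3) and 764 ± 28.6 CPM (SD, n = 3) in KO MEFs. *Laptm4a* and *Laptm4b*, lysosomal relatives of *Laptm5*, were at 1055 ± 155 CPM and 118 ± 11.6 CPM (SD) in late WT and 1431 ± 216 CPM (SD, n = 3) and 132 ± 12.2 CPM (SD, n = 3) in DKO MEFs. The tetraspanin *Cd63* was at 1448 to 2113 CPM in late WT and 1707 to 2069 CPM in DKO MEFs, and *Adgre5*, the relative of *Adgre1* that many cells express, at 56.5 ± 9.74 CPM and 52.4 ± 11.3 CPM (SD, n = 3). Of the 23 genes, 2 passed as higher (6.96% of genes tested) and 1 as lower (5.97%) with passage in the *S6K1* set, with a median log2 fold change of 0.12. With the Y-linked level as a covariate, 10 passed as higher there, where 3282 of all genes were called in either direction, beside 1827 without it. In the *S6K1/S6K2* set 1 passed as higher (8.28%) and 2 as lower (4.89%) with passage, and 1 as lower in DKO MEFs (3.95%), with medians of −0.04 and 0.04. Against early WT MEFs 2 were higher in KO MEFs (5.93%), and 2 were higher (9.34%) and 4 lower (8.92%) in DKO MEFs. Those that passed with passage were chosen after their values were seen. *Ptprj*, a receptor phosphatase like CD45 that leukocytes also use, rose in both sets (1.88, SE 0.35, adjusted *P* = 0.00391 and 0.87, SE 0.26, adjusted *P* = 0.0462). *Ptprf* fell in both (−0.89, SE 0.24, adjusted *P* = 0.0318 and −0.62, SE 0.18, adjusted *P* = 0.0424). In the *S6K1/S6K2* set *Ptprj* and *Ptprf* each kept only their direction in 9 of 14 alternative fits. *Ptprf* did so in 6 of 14 in the *S6K1* set. *Itga1* rose in the *S6K1* set (1.05, SE 0.17, adjusted *P* = 0.0016) and *Itga5* fell in the other (−1.08, SE 0.22, adjusted *P* = 0.00867). The gene lower in DKO MEFs was *Cd151* (−0.82, SE 0.19, adjusted *P* = 0.0282), which kept only its direction in 4 of 13 alternative fits.

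A list of 16 other macrophage genes, which includes the growth factor receptor *Csf1r*, the transcription factor *Spi1* and the C1q chains, was read in the same way. It was chosen with earlier results of these data known, and its directions are therefore no independent evidence. With passage 16 of 16 passed as higher in the *S6K1* set (median 2.93, 6.96% of genes tested) and 14 of 16 in the *S6K1/S6K2* set (median 2.33, 8.28% of genes tested), or 10 without replicate 1 of its early WT MEFs. The most abundant were *C1qa* (2.93, SE 0.27, adjusted *P* = 4.35e-05 in the *S6K1* set), *Ctss*, which encodes cathepsin S (3.14, SE 0.28, adjusted *P* = 3.8e-05), *C1qb* (3.00, SE 0.33, adjusted *P* = 0.000131) and *C1qc* (3.09, SE 0.28, adjusted *P* = 3.8e-05). In KO MEFs 0 of 16 passed with edgeR (median −0.86, 0.0354% of genes tested passed as lower). There 10 of 16 had an unadjusted *P* value under 0.05 and 4 passed with DESeq2, beside 1499 and 266 of all genes. In DKO MEFs 15 of 16 passed as lower (median −2.44, 3.95% of genes tested), with *C1qa* at −2.53 (SE 0.63, adjusted *P* = 0.0469) and *Ctss* at −2.35 (SE 0.54, adjusted *P* = 0.0339), or 1 without DKO replicate 2 and 5 without a filter on low counts. Late KO MEFs against early WT MEFs had 13 of 16 higher (5.93% of genes tested), or 10 without KO replicate 3. Late DKO MEFs against early WT MEFs had 1 of 16 lower (8.92% of genes tested), the mannose receptor gene *Mrc1* (−2.49, SE 0.58, adjusted *P* = 0.0149), named after its value was seen.

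**Figure D4:**
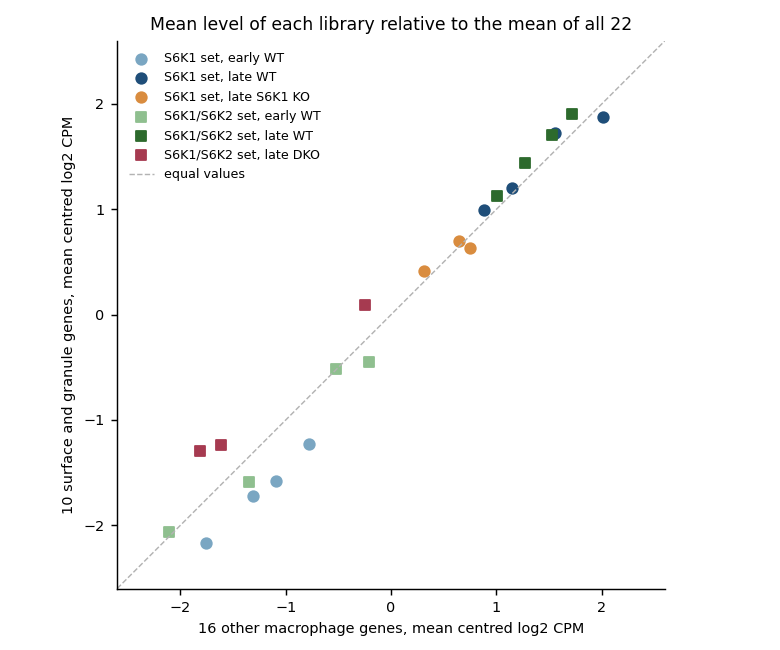
Mean of log2 CPM, centered for each gene over all 22 libraries, over the 16 other macrophage genes (x axis) and over the 10 surface and granule genes (y axis), with 1 point a library. All DKO libraries lie above the line of equal values and all early WT libraries of the *S6K1* set lie below it.

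The members were then expressed relative to the mean log2 CPM of those 16 genes in the same library. Between late KO and late WT MEFs the relative levels differed by −0.71 for *Cd300a* to 0.51 for *Cd53*, and overlapped for 9 of the 10. Only *Laptm5* did not overlap, at 1.17 ± 0.10 (SD, n = 4) in late WT and 0.79 ± 0.07 (SD, n = 3) in KO MEFs. Between late DKO and late WT MEFs 6 genes were relatively higher without overlap (*Cd53* by 0.65, *Cd300a* by 0.61, *Ptprc* by 0.50, *Laptm5* by 0.42, *Adgre1* by 0.39 and *Mpeg1* by 0.24). *Itgam* was relatively lower by 0.25 without overlap, and *Cd33*, *Cd68* and *Lyz2* overlapped. The DKO difference of these 6 genes was thus smaller in size than the mean difference of the 16 other macrophage genes, and that of *Itgam* larger. This holds for the mean only, since the 16 genes ranged in log2 fold change from −4.03 to −2.04. With passage, *Adgre1* and *Lyz2* were relatively higher without overlap in both sets, *Adgre1* by 0.98 and 0.43 and *Lyz2* by 0.94 and 0.90. *Laptm5* was so in the *S6K1* set, by 0.77, and *Mpeg1* in the *S6K1/S6K2* set, by 0.55. These values are descriptions, since the rule used the same libraries. The share of all genes without overlap on this relative scale was not computed, so nothing is read from the counts of genes.

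**Figure D5:**
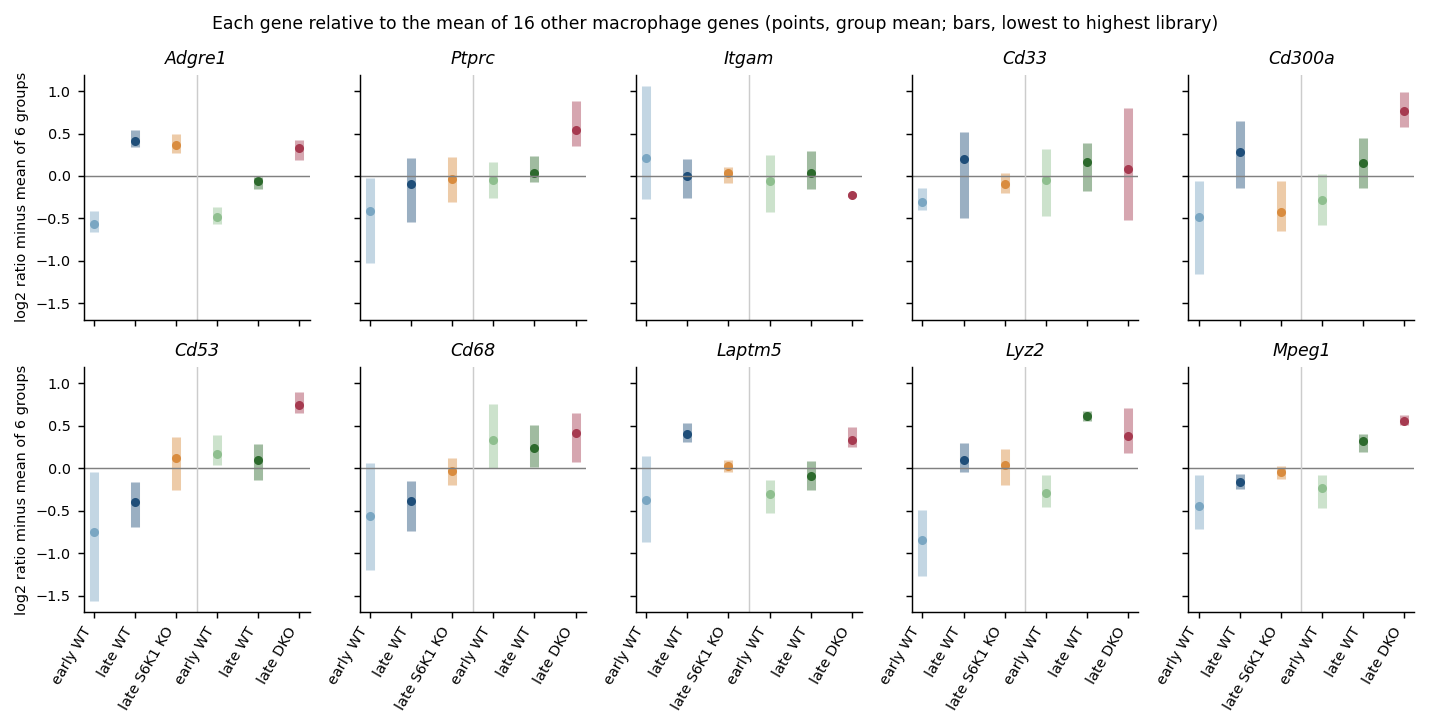
Log2 CPM of each gene minus the mean log2 CPM of 16 other macrophage genes in the same library, shown relative to the mean of the 6 groups, with group means (points) and the lowest to highest library (bars). *Adgre1* and *Lyz2* are higher in late than in early WT MEFs of both sets, and *Cd53*, *Cd300a* and *Ptprc* are highest in DKO MEFs.

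Among all 13888 genes tested in both sets that are no members, the profile over the 22 libraries nearest to the mean profile of the 10 was that of *Plek*, which encodes the leukocyte protein pleckstrin. Its root mean square difference was 0.169 on the log2 scale. Next came the complement receptor gene *C3ar1* (0.192), *Fcer1g* (0.205), which encodes the γ chain of Fc receptors, *Pld4* (0.218) and *Cd48* (0.226). The median over all these genes was 1.43. The 10 members themselves differed from their mean by 0.188 for *Mpeg1*, the most typical, to 0.465 for *Itgam*, the least. *Plek* was at 13.4 ± 4.96 CPM in early WT, 107 ± 20.7 CPM in late WT and 56.9 ± 3.69 CPM in KO MEFs, and at 17.7 ± 10.7, 114 ± 21.2 and 25.7 ± 17.3 CPM in early WT, late WT and DKO MEFs (mean ± SD).

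Markers of other blood cells were at or near 0, although *Ptprc*, *Cd53*, *Laptm5* and *Itgam* are used by many leukocytes. Summed over a library, 5 B cell markers reached at most 0.383 CPM, 8 T and NK cell markers 2.08 CPM, 4 erythroid markers 0.843 CPM, 6 mast cell markers 1.94 CPM and 5 dendritic cell markers 3.64 CPM. The 10 members summed to at least 302.5 CPM in every library, or at least 87.1 CPM without *Lyz2*. Single members could be as low as those sums, with *Cd300a* down to 1.16 CPM in early WT MEFs. The 10 neutrophil markers summed to at most 4.70 CPM, most of it *Csf3r*, which monocytes also express and which rose with passage by 4.65 (SE 0.78, adjusted *P* = 0.00222) and 2.41 (SE 0.53, adjusted *P* = 0.0121) in the 2 sets. *S100a8* reached at most 0.442 CPM. Of 5 osteoclast genes 2 were tested. *Ctsk*, which fibroblasts express too, was at 53.1 to 190.3 CPM in early WT, 64.4 to 334 CPM in late WT and 86.3 to 106 CPM in KO MEFs, and at 54.8 to 135, 64.1 to 179.8 and 171 to 218 CPM in early WT, late WT and DKO MEFs. *Acp5* fell with passage in the *S6K1* set (−2.21, SE 0.49, adjusted *P* = 0.0119) and had a difference of −1.47 (SE 0.46, adjusted *P* = 0.0543) in the *S6K1/S6K2* set. The 5 endothelial markers summed to at most 14.7 CPM.

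Of the 10 fibroblast genes, 8 had a negative log2 fold change with passage in each set. With the test, 4 passed as lower in the *S6K1* set (5.97% of genes tested) and 3 in the *S6K1/S6K2* set (4.89% of genes tested), with *Col1a1* at −0.87 (SE 0.26, adjusted *P* = 0.0444) and −1.40 (SE 0.21, adjusted *P* = 0.00183) and *Col1a2* at −1.01 (SE 0.27, adjusted *P* = 0.0295) and −0.89 (SE 0.15, adjusted *P* = 0.0035). In the *S6K1* set 1 passed without replicate 2 of its early WT MEFs. Their summed level was 19237 to 28842 CPM in early WT, 9065 to 16977 CPM in late WT and 9468 to 13660 CPM in KO MEFs, and 19160 to 29772, 9999 to 13923 and 13623 to 16703 CPM in early WT, late WT and DKO MEFs. Late KO and late WT libraries overlapped, and 2 of the 3 DKO libraries were above the late WT range. The part of the number of fibroblasts in these values was not tested.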

How the data were processed

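RNA-seq libraries of 22 MEF cultures were made with a stranded poly(A) kit and sequenced as single-end 50-base reads. The authors deposited raw counts per Ensembl gene, and these counts were used as deposited. The paper names TopHat, HTSeq and mm9, whereas the submitters' processing notes list STAR 2.7.1a, DESeq2 1.28.1 and mm10, so the aligner and build behind the counts are uncertain, and the annotation release and strand setting were not given in the sources used here. Symbols came from GENCODE vM1 and RefSeq, and 22812 of 55401 identifiers had no match.

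Each set was fitted with edgeR 4.0.16 in R 4.3.3 (filterByExpr, TMM factors, robust quasi-likelihood test, Benjamini-Hochberg adjusted *P* under 0.05), with its 3 groups in 1 fit, which gave 14132 and 14365 genes. The SE is the size of the log2 fold change divided by the square root of F. Levels are CPM with 1 TMM scaling over all libraries, on the log2 scale with a pseudocount of 0.5. No 2 libraries agreed within sampling noise (chi-square per degree of freedom of 20.6 or more over 30 pairs of a group). A library was said to have Y-linked transcripts above 10 CPM summed over 4 genes. Labels do not say which libraries share an embryo, so *P* values measure only the spread between libraries, and floors cover counting error only.

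The members and lists were chosen with earlier results of these data known. Named were all members, the kinase genes, up to 4 genes of a list by mean CPM, relatives of each member's family and the 5 genes nearest in profile. Alternatives were DESeq2 1.42.0, RLE scaling, no filter, the compared groups alone, all 6 groups, a Y-linked covariate and each library left out.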

Additional observations from a re-analysis of the deposited data

Results flagged for a closer look

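Each of the 10 genes was examined for a library far from the others in the 4 groups of 4 libraries, 40 groups of values in all, of which chance alone flags about 1 in 20. *Cd300a* in early WT MEFs of the *S6K1* set had 1 library at 2.47 CPM, while the others stood at 1.34 to 1.495 CPM. *Cd53* in late WT MEFs of the *S6K1/S6K2* set had 1 library at 117 CPM, while the others stood at 70.4 to 77.0 CPM. Both were replicate 2 of their group.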

How the results depend on the processing

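No paired analysis was possible because replicate numbers were given in accession order and carry no pairing. The 10 genes kept the sign of their difference under all alternatives in 5 of the 6 comparisons, and in 116 of 130 values for DKO against early WT MEFs. Of 932 alternative values of 69 tested results on other named genes, 800 kept their direction and side of the threshold, 126 kept only their direction, 6 newly passed and 0 turned. Counts of genes called moved more, and the cause was not tested. With passage in the *S6K1* set, 1827 genes were called, 3282 with the Y-linked covariate, and 1223 to 1749 with 1 library left out. Between KO and late WT MEFs 6 were called, 266 with DESeq2, 47 with the Y-linked covariate, 16 with all 6 groups, 43 without a filter, and 2 to 9 with 1 library left out. Between KO and early WT MEFs 1578 were called, 2675 with DESeq2, 2564 with all 6 groups, and 540 (without KO replicate 3) to 2055 with 1 library left out. With passage in the *S6K1/S6K2* set 1892 were called, 2845 with DESeq2, and 885 (without early WT replicate 1) to 2247 with 1 library left out. Between DKO and late WT MEFs 686 were called, 1206 with DESeq2, and 97 (without DKO replicate 2) to 783 with 1 library left out. Between DKO and early WT MEFs 2623 were called, and 1163 (without DKO replicate 2) to 2757 with 1 library left out. Summed levels of the 10 genes moved by less than the spread between libraries under both other scalings.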
